A study of Mus musculus with 2 samples.

Results

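PD-1-positive CD8 T cells are the cytotoxic T cells that carry transcripts of Pdcd1, the gene of the inhibitory receptor PD-1. They were chosen by raw counts of unique molecular identifiers (UMIs, the tags that mark single captured transcripts). A kept barcode had at least 500 UMIs, at least 200 genes and under 20% mitochondrial UMIs. A member had at least 1 UMI of Cd8a or Cd8b1, at least 1 of Cd3d, Cd3e, Cd3g or Trac, none of Cd4, at least 1 of Pdcd1, and at most 1 over Csf1r, C1qa, Csf3r and Cd79a. The rule found 180 cells among 21211 kept barcodes, 125 in the NAV library and 55 in the MOCK library. The remaining 189 CD8 T cells passed every step but held no Pdcd1 UMI, and are called other CD8 T cells here (119 NAV and 70 MOCK).

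The cells came from liver tumours of C57BL/6 mice. In both groups transposon vectors for Myr-AKT and YAPS127A had been injected together by the hydrodynamic route, a model of intrahepatic cholangiocarcinoma (iCCA), the malignancy that arises from bile ducts inside the liver. The NAV group received NAV2729 at 30 mg/kg every other day for 7 days, starting 7 days after the injection, and the MOCK group was the mock treatment of the same design. CD45+ immune cells were sorted by flow cytometry and captured on the BD Rhapsody platform. Each group was 1 pooled library, and the labels give the pool as 6 tumours in one place and 3 paired tumours in another. With 1 library per group there was no replicate, so no test was run, and every interval below covers counting error only.

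In a CD8 T cell, PD-1 is switched on by signalling of the antigen receptor and dampens that signalling when its ligands are present. Under lasting antigen, as in tumours and chronic infection, CD8 T cells keep PD-1, gain the transcription factor TOX and further inhibitory receptors, and lose the programme of recirculating naive and memory cells. NAV2729 is known as an inhibitor of the small GTPase ARF6, which works in membrane traffic.

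The members were sampled at like depth in both libraries. Their median was 2524 UMIs per cell in NAV and 2515 in MOCK, with 357685 and 168155 UMIs in all. Other CD8 T cells had medians of 2519 UMIs in NAV and 2587 in MOCK. Over all kept barcodes the libraries differed more, with medians of 2178 UMIs in NAV and 3882 in MOCK. The libraries shared 5 barcodes, and none of these was a member.

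The label was checked against markers that the rule did not use. Tox, Tnfrsf9 and Gzmb, which encode TOX, the costimulatory receptor 4-1BB and granzyme B, were all detected in 36 of 125 NAV and 12 of 55 MOCK members. A further 12 NAV and 5 MOCK members held none of the 3. T cell receptor beta constant genes (Trbc1 or Trbc2) had a UMI in 95.2% of NAV members (exact binomial 95% interval 89.8% to 98.2%) and 89.1% of MOCK members (77.8% to 95.9%). The gamma variable gene Trgv2 had a UMI in 8% of NAV members (3.90% to 14.2%) and 20% of MOCK members (10.4% to 33.0%), whereas the delta constant gene Trdc was seen in 2 NAV and 1 MOCK members. The markers go with the label for most of the cells, and the gate does not separate out cells with gamma chain transcripts.

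Transcripts of other lineages were unevenly spread over the members. Under 10 UMIs of each of the B cell, macrophage (without Ly6c2), neutrophil, dendritic, endothelial and tumour lists were held by 122 of 125 NAV and 51 of 55 MOCK members. All 6 hepatocyte genes were at 0 in both libraries, as were the B cell genes Cd79b and Ms4a1 and the NK receptor Ncr1. The 6 neutrophil genes summed to 22 UMIs over 17 NAV members, at most 3 in a cell. In MOCK they summed to 539 UMIs over 9 members, of which 530 lay in a single barcode. The macrophage and monocyte list summed to 113 UMIs in NAV members (7 of 10 genes detected) and 101 in MOCK members (6 of 10), with Adgre1 and Vsig4 at 0 in both. The highest cell held 23 of these in NAV and 53 in MOCK. Spp1, a secreted protein of tumour cells and macrophages, had 49 UMIs over 15 NAV members and 8 UMIs in 1 MOCK member, while the keratins Krt19 and Krt7 were at 0, and the highest cell held 19 UMIs of that tumour list in NAV and 12 in MOCK. NK genes other than Ncr1 (Klre1, Tyrobp, Fcer1g, Klrb1c) summed to 90 UMIs over 48 NAV members and 50 UMIs over 17 MOCK members, with 8 and 23 in the highest cell. Dendritic cell genes summed to 43 UMIs in NAV and 45 in MOCK, with 7 and 30 in the highest cell. Endothelial genes summed to 23 UMIs in NAV, 12 of them in 1 cell, and 2 in MOCK, platelet and erythroid genes to 1 and 0, and the B cell list to 24 and 11. Foxp3, the factor of regulatory T cells, was seen in 1 NAV and no MOCK member. Results that turn on such barcodes are given with and without them.

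PD-1-positive CD8 T cells made up a larger share of the immune cells in NAV. Of all kept barcodes with a Pdcd1 UMI, 34.0% of 368 in NAV and 19.9% of 276 in MOCK were members. The members were 125 of 10441 kept barcodes in NAV, or 1.20% (exact binomial 95% interval 0.997% to 1.42%), and 55 of 10770 in MOCK, or 0.511% (0.385% to 0.664%). The ratio was 2.34, a log2 difference of 1.23 (exact conditional 95% interval 0.76 to 1.71), more than counting error spans. Other CD8 T cells were 1.14% of kept barcodes in NAV and 0.650% in MOCK, a ratio of 1.75. Counted among T and NK cells, the members were 14.5% of 862 in NAV and 10.4% of 529 in MOCK, a log2 difference of 0.48 (0.01 to 0.96). After thinning that difference was 0.44 (-0.16 to 1.06). How the pooled tumours or the sort differed between the libraries was not measured, so treatment and library cannot be told apart.

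Within the CD8 T cells the share with a Pdcd1 UMI differed by less than counting error. It was 51.2% of 244 cells in NAV (44.8% to 57.7%) and 44% of 125 in MOCK (35.1% to 53.2%), a log2 difference of 0.22 (-0.25 to 0.70). With every cell thinned to 1000 UMIs before the gate, it was 39.1% in NAV and 37.6% in MOCK. CD4 T cells, gated in the same way on Cd4, had a Pdcd1 UMI in 44 of 96 cells in NAV and 16 of 47 in MOCK, or 45.8% and 34.0%, a log2 difference of 0.43 (-0.43 to 1.35). The intervals of these log2 differences take the counts as Poisson, so at shares this large they are wider than binomial ones.

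**Figure D1:**
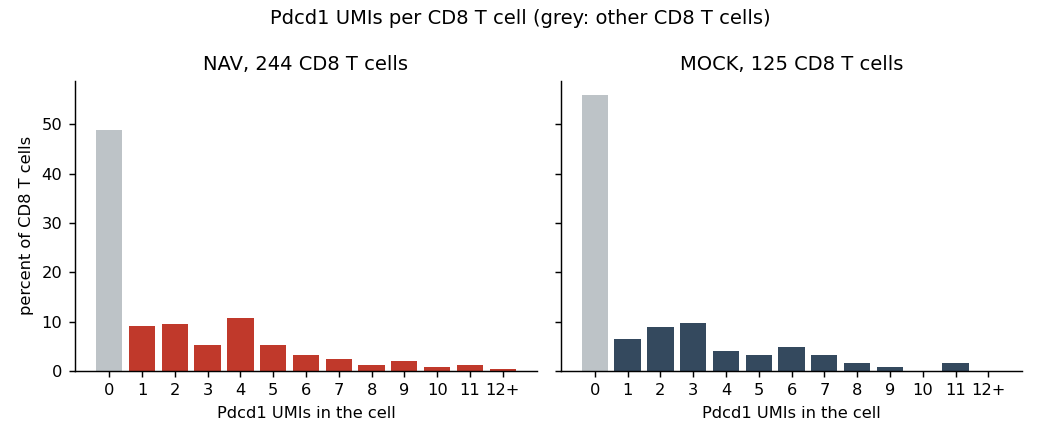
Number of Pdcd1 UMIs per CD8 T cell (x axis) against the percent of CD8 T cells of the library (y axis), NAV left and MOCK right. Grey bars are cells with no Pdcd1 UMI and coloured bars are the members, whose highest counts were 22 UMIs in NAV and 11 in MOCK.

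Pdcd1 ran from 1 to 22 UMIs per member in NAV, with a median of 4, and from 1 to 11 in MOCK, with a median of 3. Its summed level was 1426 CPM (UMIs summed over the cells of a class and scaled to a common total) in NAV members and 1290 CPM in MOCK members. These values chose the cells and are a description. Cells just inside the gate, with exactly 1 Pdcd1 UMI, numbered 22 in NAV and 8 in MOCK. In them Tox stood at 542 CPM in NAV and 274 CPM in MOCK, and Tcf7 had a UMI in 13.6% of cells in NAV and 37.5% in MOCK. Just outside, in cells with no Pdcd1 UMI, Tox stood at 104 CPM in NAV and 103 CPM in MOCK, and Tcf7 had a UMI in 62.2% and 51.4% of cells. On the other edge of the gate, 4 NAV and 5 MOCK barcodes would have been members but for a second UMI of Csf1r, C1qa, Csf3r or Cd79a, and 24 NAV and 25 MOCK barcodes had 3 or more. Those last had medians of 5873 UMIs in NAV and 8060 in MOCK, above the members. Without that limit, an alternative chosen after the data were seen, the members would have been 1.47% of kept barcodes in NAV and 0.789% in MOCK, a log2 difference of 0.89 (0.50 to 1.29).

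Beside other CD8 T cells, the members held more of the granzyme genes Gzma and Gzmk, the homing receptor gene Cxcr6, the receptor genes Ctla4 and Tnfrsf9 and the regulator Tox, and less of Klf2, S1pr1, Lef1 and Tcf7. Because a Pdcd1 UMI divided the same cells, the contrast is a description and not a test. Of 2515 genes with at least 30 UMIs in each library over both classes, 107 were at least 2-fold higher in members in both libraries (4.25%) and 43 at least 2-fold lower in both (1.71%). A gene past 2-fold is called here. The genes below were ranked by the lesser of the libraries' interval bounds nearest to 0.

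Klrh1, which encodes a lectin-like receptor of the NK gene complex, headed the ranking. It had 203 UMIs in 42 of 125 members and 4 UMIs in 3 of 119 other CD8 T cells in NAV, a log2 ratio of 5.54 (4.16 to 7.43). In MOCK it had 60 UMIs in 12 of 55 members and none in 70 other CD8 T cells, a log2 ratio of at least 4.66 against a floor of 3 UMIs over the class. PD-1-positive CD4 T cells, NK cells and B cells held no Klrh1 UMI in either library. Most members had none either: 33.6% of NAV and 21.8% of MOCK members carried the transcripts.

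Glp1r, the receptor of the incretin hormone GLP-1, followed the same distribution at a lower level. It had 54 UMIs in 35 members and 1 UMI in other CD8 T cells in NAV, and 30 UMIs in 15 members and none in other CD8 T cells in MOCK. NK cells had none in either library, and PD-1-positive CD4 T cells had 2 UMIs in NAV and 1 in MOCK. Glp1r was thus seen in 28% of NAV and 27.3% of MOCK members, with few counts in any class beside them.

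Among the effector genes, Gzma, which encodes granzyme A, stood at 2913 CPM in members and 146 CPM in other CD8 T cells in NAV. In MOCK it stood at 3104 CPM in members and 197 CPM in other CD8 T cells. The log2 ratios were 4.31 (3.90 to 4.76) in NAV and 3.97 (3.52 to 4.46) in MOCK. The UMIs came from 55 of 125 members in NAV and 18 of 55 in MOCK, so most members had none. NK cells, which are known to carry granzyme A, stood at 4202 CPM in NAV and 2749 CPM in MOCK. Gzmk, of granzyme K, had log2 ratios of 2.10 in NAV and 2.62 in MOCK. Nkg7, a granule membrane protein, had 1.37 and 1.27. Gzmb was weaker, at 1.30 (1.04 to 1.57) in NAV and 0.63 (0.32 to 0.94) in MOCK. Of 12 cytotoxicity genes measured, 3 were called higher in both libraries (Gzma, Gzmk and Nkg7) and none lower. The shares over all genes were 4.25% higher and 1.71% lower.

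Of the receptors, Tnfrsf9 had 396 UMIs in members and 48 in other CD8 T cells in NAV, and 137 UMIs in members and 19 in other CD8 T cells in MOCK. Its log2 ratios were 2.92 (2.48 to 3.38) and 3.19 (2.49 to 3.96). Per member it ran from 0 to 20 UMIs in NAV and from 0 to 12 in MOCK, with a median of 2 in both. Ctla4, a second inhibitory receptor, had log2 ratios of 3.07 in NAV and 3.11 in MOCK, and Klrc1, which encodes the inhibitory NKG2A, 2.0 and 2.68. The costimulatory receptor genes Icos (1.31 and 1.09) and Tnfrsf1b (1.12 and 1.15) were also called. The checkpoint list had only 4 genes at 30 UMIs, and Ctla4 and Klrc1 were the 2 called, beside 4.25% called higher over all genes.

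Of 11 transcription regulators tied to exhausted or tissue-bound T cells, 7 were called higher in both libraries and none lower. The shares over all genes were 4.25% higher and 1.71% lower. Tox had 241 UMIs in members and 34 in other CD8 T cells in NAV, and 78 UMIs in members and 22 in other CD8 T cells in MOCK. Per member it ran from 0 to 13 UMIs in NAV and from 0 to 11 in MOCK, with a median of 1 in both. Its log2 ratios were 2.7 (2.18 to 3.26) and 2.16 (1.47 to 2.92). Bhlhe40, a regulator of mitochondrial metabolism in tissue T cells, had ratios of 1.85 and 1.99. Id2 had 1.62 and 2.37, Nr4a2 1.5 and 1.42, Rbpj 1.56 and 1.32, and Ikzf2 2.20 and 1.34. Of the 7, Maf differed most between the libraries, at 2.98 (2.20 to 3.86) in NAV and 1.10 (0.46 to 1.77) in MOCK, where 17 of its 33 UMIs in other CD8 T cells lay in 1 cell. Over all 2515 genes the median log2 ratio was 0.10 in NAV and 0.05 in MOCK, against 1.56 and 1.32 over the 11 regulators. Scaling by the median of ratios instead of the total shifted all NAV ratios by -0.12.

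Of 12 tissue-residency genes, 3 were called higher in both libraries and none lower, beside 4.25% higher and 1.71% lower over all genes. Cxcr6, a chemokine receptor of liver-resident lymphocytes, stood at 1009 CPM in members and 229 CPM in other CD8 T cells in NAV. In MOCK it stood at 1017 CPM in members and 150 CPM in other CD8 T cells. Rgs1, which damps chemokine receptor signalling, had log2 ratios of 1.63 and 1.90. Itgae, the integrin alpha chain CD103, had 1.27 (0.23 to 2.42) in NAV and 2.01 (1.20 to 2.89) in MOCK. The chemokine Ccl5 was abundant, at 7509 CPM in members and 2374 CPM in other CD8 T cells in NAV, and 7279 CPM in members and 2022 CPM in other CD8 T cells in MOCK. Also ranked high were Serpina3g, a serine protease inhibitor (3.46 and 3.12), Mxi1, a MYC antagonist (2.19 and 2.59), Chst12, a chondroitin sulfotransferase (2.44 and 2.59), and Tiprl, a phosphatase regulator (1.91 and 2.09).

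The genes called lower in both libraries included 7 of the 11 measured on the naive, memory and progenitor list, genes known from cells that recirculate through lymph nodes. The share called lower over all genes was 1.71%. S1pr1, the receptor that lets T cells leave tissue, had 19 UMIs in 7 of 125 members and 124 UMIs in 63 of 119 other CD8 T cells in NAV. In MOCK it had 5 UMIs in 3 of 55 members and 61 UMIs in 26 of 70 other CD8 T cells. Its log2 ratios were -2.83 (-3.61 to -2.13) in NAV and -3.27 (-4.94 to -1.97) in MOCK. Klf2, the factor that drives S1pr1, had -3.57 and -2.67. The naive and memory transcription factor genes Lef1 (-3.85 and -3.47), Tcf7 (-2.45 and -3.35) and Satb1 (-2.45 and -2.42) were lower as well. These genes were not absent from members, where Satb1 was seen in 24% of NAV and 23.6% of MOCK cells and Klf2 in 13.6% and 23.6%. Bach2, a repressor that keeps T cells quiescent, was also among the 7, at -1.13 in NAV and -3.09 in MOCK. Foxo1, a regulator of T cell quiescence that also sustains PD-1-positive cells, was the 1 called higher, at 1.53 (1.13 to 1.94) in NAV and 2.15 (1.57 to 2.78) in MOCK.

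Further genes ranked low were Igfbp4, an insulin-like growth factor binding protein, with 2 UMIs in members and 35 in other CD8 T cells in NAV and none in members and 58 in other CD8 T cells in MOCK. Il6ra, of the interleukin-6 receptor, had log2 ratios of -3.75 in NAV and -3.83 in MOCK, and Myc had -3.16 and -2.59. Fam241a, Sidt1 and Ssh2 lay between -3.40 and -1.81 over both libraries. Ly6c2, a surface protein of memory T cells and monocytes, had -2.93 and -3.18. The macrophage and monocyte list, which also holds Ly6c2, summed to 113 UMIs in members and 414 in other CD8 T cells in NAV, and to 101 in members and 330 in other CD8 T cells in MOCK. Ly6c2 itself gave 51 of the members' UMIs in NAV and 21 in MOCK, so these sums are no measure apart from Ly6c2. The part of macrophage or monocyte transcripts in the Ly6c2 difference was not tested. Klf3 (-2.89 and -2.28) joined Ly6c2 among the 2 of 5 effector and NK-type genes called lower, beside 1.71% over all genes. Single genes of other lists were called in both libraries, Fos (-1.03 and -1.18), Hspa1a and Ifi47 lower and Cenpa higher. From the lists of other cell types, Il2ra, of the interleukin-2 receptor (3.87 and 2.04), and the gamma constant gene Trgc1 (1.99 and 2.04) were called higher. The antigen-receptor signalling, type I interferon, MHC class I, glycolysis, ER chaperone and G1/S lists had none. When at most 2 UMIs of the wider B, macrophage, neutrophil and hepatocyte lists were allowed, the genes called lower in both libraries numbered 21 instead of 43, with 79 NAV and 42 MOCK other CD8 T cells left. Those lists hold Ly6c2, so that limit also removed cells for a gene that was itself lower in members. With barcodes of at least 10 UMIs of another lineage left out, Ly6c2 not counted, the genes called lower numbered 37. That left 111 NAV and 66 MOCK other CD8 T cells.

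**Figure D2:**
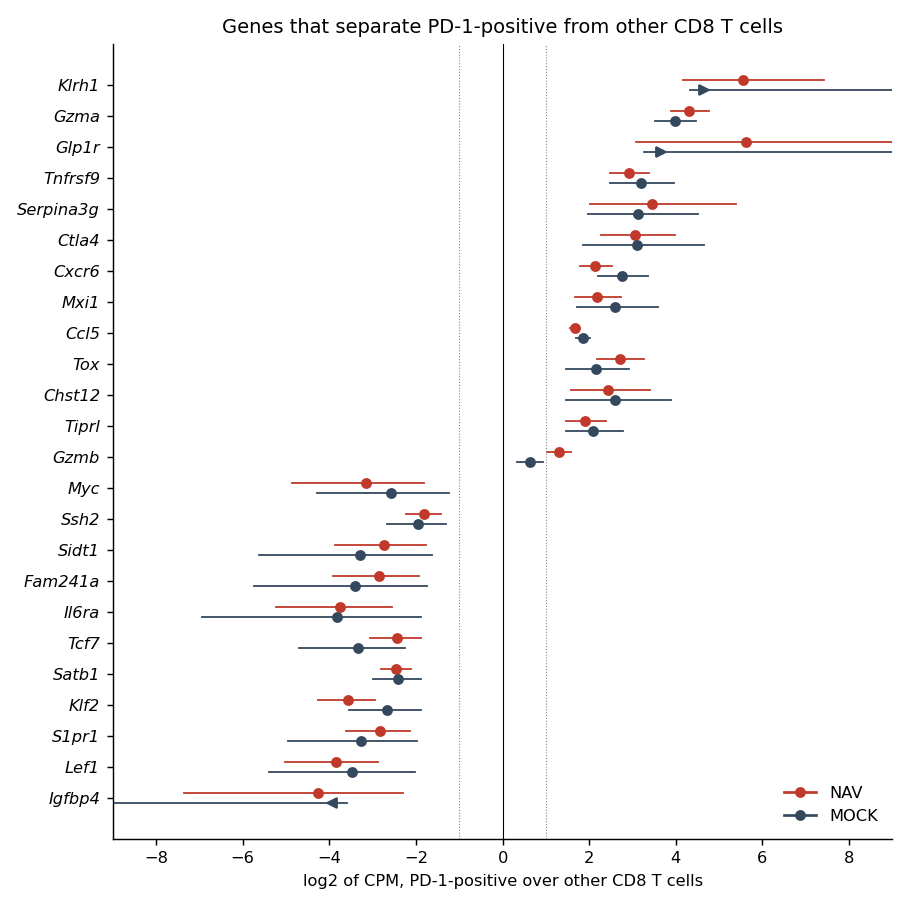
Log2 ratio of CPM in PD-1-positive over other CD8 T cells (x axis) for the 12 genes ranked highest, Gzmb and 11 of the 12 ranked lowest (y axis), NAV above MOCK for each gene. Points are ratios, lines are 95% intervals for counting error, triangles mark ratios against a class with no UMI, and dotted lines mark 2-fold. The 12 highest and the 11 lowest shown lie beyond 2-fold in both libraries, while Gzmb lies at 1.30 in NAV and 0.63 in MOCK.

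Against the nearest other classes the members differed gene by gene. Tox stood at 674 CPM in members and 569 CPM in PD-1-positive CD4 T cells in NAV, and at 464 CPM and 409 CPM in MOCK. NK cells stood near 100 CPM of Tox in both libraries. Ctla4 was lower in members than in PD-1-positive CD4 T cells, at 358 CPM and 888 CPM in NAV and 244 CPM and 465 CPM in MOCK. Gzmb followed the cytotoxic lineages, with 1202 CPM in members, 156 CPM in PD-1-positive CD4 T cells and 1343 CPM in NK cells in NAV, and 1177, 18.6 and 2067 CPM in the same order in MOCK. Ccl5 stood at 7509 CPM in members and 8590 CPM in PD-1-positive CD4 T cells in NAV. In MOCK these were 7279 and 2306 CPM. Cxcr6 stood at 1009 and 903 CPM in the same order in NAV, and at 1017 and 353 CPM in MOCK. The PD-1-positive CD4 T cells were few, 44 in NAV and 16 in MOCK.

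**Figure D3:**
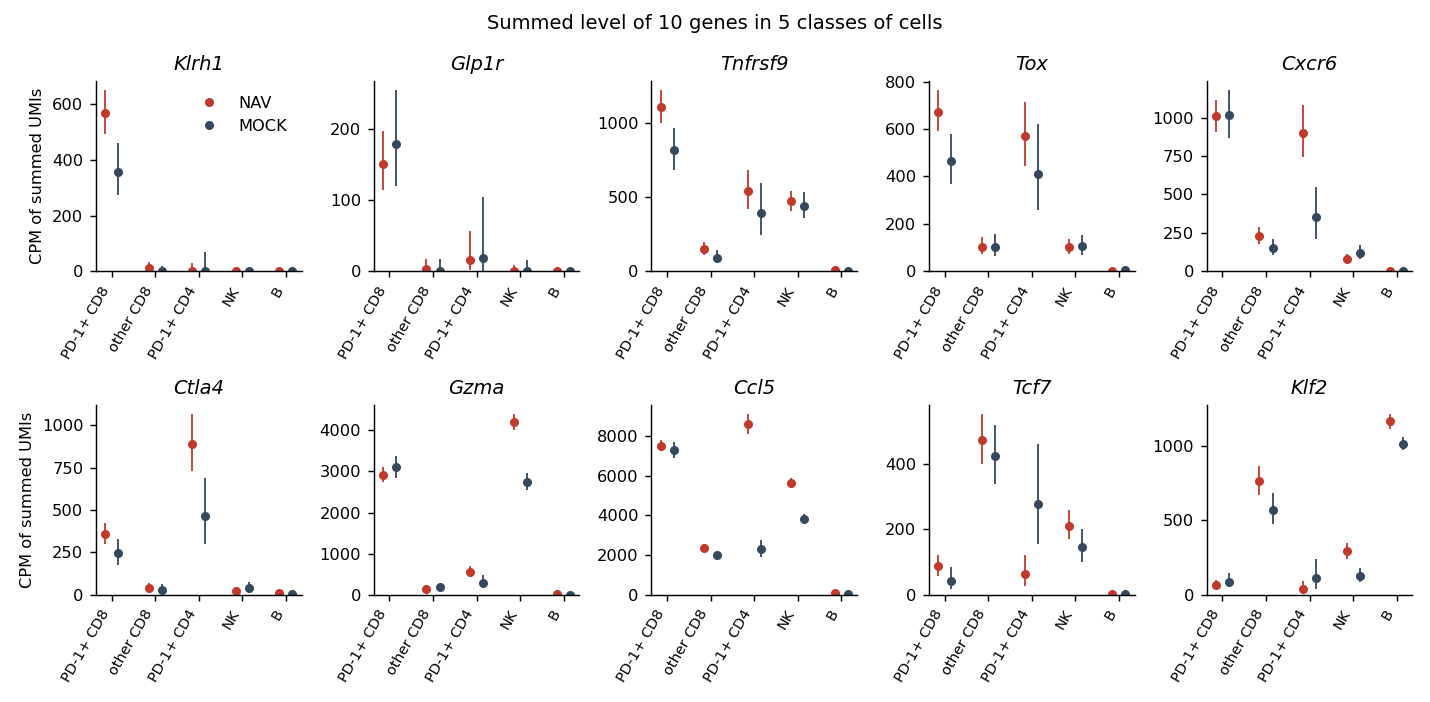
Summed level in CPM (y axis, from 0, a scale of its own in each panel) of 10 genes in members, other CD8, PD-1-positive CD4, NK and B cells (x axis), NAV left of MOCK. Points are summed levels and lines 95% Poisson intervals for counting error. Klrh1 and Glp1r stand above 100 CPM in members only, whereas Gzma and Ccl5 are shared with NK cells and Klf2 is highest in B cells. In NAV, Ccl5 is highest in PD-1-positive CD4 T cells.

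Shares of cells with a UMI, with each cell thinned to 1000 UMIs, gave the same picture cell by cell. Thinning left 122 NAV and 54 MOCK members, and 112 NAV and 62 MOCK other CD8 T cells. Tnfrsf9 was seen in 52.5% of members and 6.25% of other CD8 T cells in NAV, and in 50% of members and 6.45% of other CD8 T cells in MOCK. The unthinned shares in members were 71.2% in NAV and 65.5% in MOCK. B cells, which should lack it, had 0.354% in NAV and 0.136% in MOCK after thinning. Their unthinned median depths were 1503 and 1404 UMIs. Tox was seen in 36.1% of NAV and 40.7% of MOCK members, and Cxcr6 in 61.5% and 50%, where B cells had 0.236% and 0.544% for Tox and 0.118% and 0% for Cxcr6. Unthinned, Tox was seen in 60% of NAV and 58.2% of MOCK members. Tcf7 was seen in 5.74% of NAV and 3.70% of MOCK members, and in 35.7% of NAV and 25.8% of MOCK other CD8 T cells.

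The classical exhaustion receptors were sparse, but stood higher in members than in other CD8 T cells. Havcr2, which encodes TIM-3, was seen in 5.74% of members in NAV and 11.1% in MOCK after thinning, and B cells had 2.48% and 2.99%. Lag3 was seen in 6.56% and 7.41%, with B cells at 0 of 847 in NAV and 1 of 735 in MOCK, and Tigit in 7.38% and 9.26%. Unthinned, Havcr2 stood at 97.9 CPM in members and 12.2 CPM in other CD8 T cells in NAV, and at 113 and 14.1 CPM in MOCK. In the same order Lag3 stood at 55.9, 9.15, 53.5 and 4.70 CPM, and Tigit at 67.1, 6.10, 89.2 and 9.40 CPM. In NAV, PD-1-positive CD4 T cells stood above the members, at 234 CPM of Havcr2, 93.5 CPM of Lag3 and 125 CPM of Tigit. In MOCK they stood below, at 55.8, 18.6 and 37.2 CPM, from 3, 1 and 2 UMIs. These genes had too few UMIs to be among those measured in both libraries, so they could not be called. Without thinning, 50.4% of NAV and 50.9% of MOCK members had a UMI of at least 1 of Havcr2, Lag3, Tigit and Entpd1. No member held both Tcf7 and Havcr2, among 12 NAV and 5 MOCK members with Tcf7 and 25 and 14 with Havcr2. Klrg1, a marker of short-lived effector cells, was at 0 in all 180 members, which allows a share with a UMI of up to 2.4% in NAV and 5.45% in MOCK by a floor of 3 cells, and 2.91% and 6.49% by the exact binomial upper bound.

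**Figure D4:**
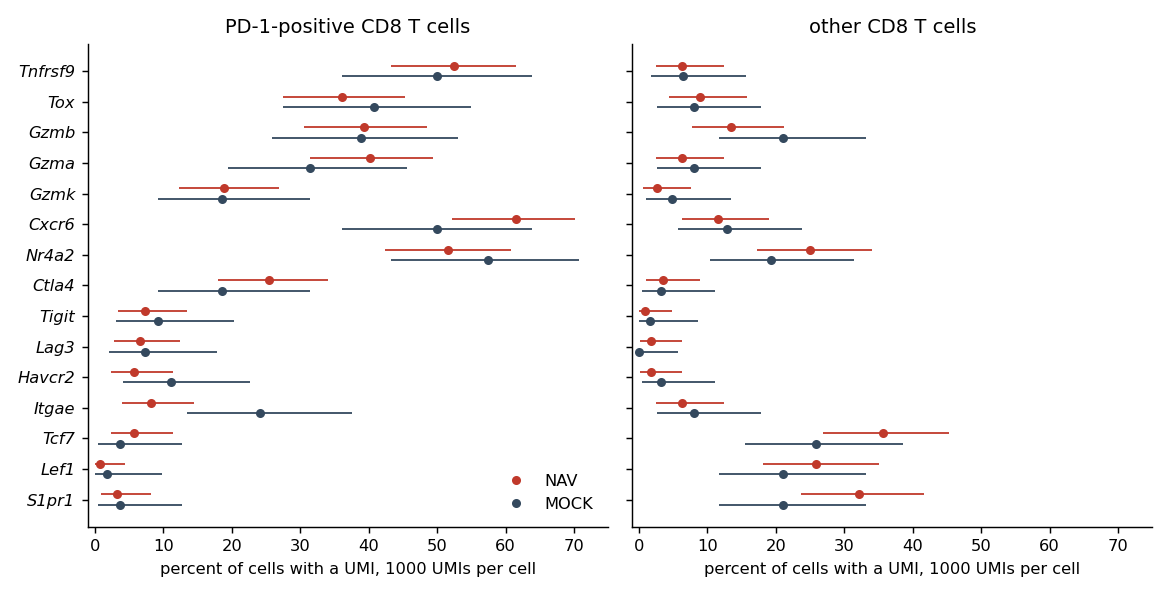
Percent of cells with a UMI of each gene after thinning to 1000 UMIs per cell (x axis) for 15 genes (y axis), in members (left) and other CD8 T cells (right), NAV above MOCK. Points are shares and lines exact binomial 95% intervals. Intervals of NAV and MOCK overlap for all 15 genes in members, and Itgae stands at 8.20% in NAV and 24.1% in MOCK.

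Dividing cells were a minority, and their shares in the libraries differed by less than counting error. Mki67 or Top2a, which mark cells in division, had a UMI in 22 of 125 members in NAV, or 17.6% (11.4% to 25.4%), and in 9 of 55 in MOCK, or 16.4% (7.77% to 28.8%). The summed level of Mki67 was 75.5 CPM in NAV members and 155 CPM in MOCK members, a log2 ratio of -1.03 (-1.87 to -0.20), and -0.50 without the highest cell of each library. Top2a, the other division marker, ran the other way, at 131 CPM (47 UMIs) in NAV and 83.3 CPM (14 UMIs) in MOCK. So did Mcm3, a subunit of the replicative helicase, at 117 CPM in NAV and 53.5 CPM in MOCK, a log2 ratio of 1.13 (0.07 to 2.36). Of 11 genes of the G1 and S phases, Mcm2 and Mcm3 were called higher and none lower, beside 3.61% higher and 3.99% lower over all genes. Of 5 genes of G2 and mitosis, Mki67 was called lower and none higher, around a median log2 ratio of 0.48.

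Between treatments most of the genes above differed by less than 2-fold in the members. Of 3462 genes with at least 30 UMIs over both libraries, 125 were at least 2-fold higher in NAV members (3.61%) and 138 at least 2-fold lower (3.99%), around a median log2 ratio of 0.04. With a minimum of 60 UMIs, 23 were higher and 55 lower. None of the 10 checkpoint genes, 12 exhaustion regulators, 14 antigen-receptor signalling genes or 12 MHC class I genes was past 2-fold, nor any of 11 ER chaperone or 4 type I interferon genes. Ccl5 stood at 7509 CPM in NAV and 7279 CPM in MOCK, Cxcr6 at 1009 CPM and 1017 CPM, and Gzmb at 1202 CPM and 1177 CPM. Their log2 ratios were 0.04 (-0.05 to 0.14), -0.01 (-0.28 to 0.26) and 0.03 (-0.22 to 0.28).

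The ratios of the 10 checkpoint genes ran from -0.41 to 0.84 with a median of 0.40, and those of the 12 exhaustion regulators from -0.59 to 0.89 with a median of 0.16, none past 2-fold in either direction. The genes given here are the markers and those whose interval bound lay farthest from 0, so they do not stand for their lists, and Klrc1 of the checkpoint list had -0.17 (-0.58 to 0.25). Tox stood at 674 CPM in NAV and 464 CPM in MOCK, a log2 ratio of 0.54 (0.16 to 0.93). Tnfrsf9 had 0.44 (0.16 to 0.73) and Ctla4 0.55 (0.04 to 1.10). Nfatc1, a transcription factor of antigen-receptor signalling, had 0.89 (0.32 to 1.5), and Ikzf2, which encodes Helios, 0.82 (0.25 to 1.43). The costimulatory receptor gene Cd28 had 0.99 (0.32 to 1.71). In all other kept barcodes the same ratios were 1.05 for Tox, 1.32 for Tnfrsf9, 1.12 for Ctla4, 0.59 for Nfatc1, 0.81 for Ikzf2 and 1.21 for Cd28, where T and NK cells were 862 of the NAV and 529 of the MOCK barcodes. The part of that in the members' ratios was not tested.

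Of 4 cytokine genes measured, 2 were called higher in NAV members and none lower, beside 3.61% higher and 3.99% lower over all genes. Areg, which encodes the growth factor amphiregulin, had 128 UMIs in 18 members in NAV and 15 UMIs in 5 members in MOCK. Its log2 ratio was 2.0 (1.23 to 2.88), against 0.20 in all other kept barcodes, and 2.73 without the highest cell of each library. Xcl1, a chemokine that draws cross-presenting dendritic cells, had 76 UMIs in 27 members in NAV and 13 in 6 members in MOCK, a log2 ratio of 1.46 (0.60 to 2.43). In other kept barcodes Xcl1 had 1.0. Ccl4 had 119 UMIs in 37 members in NAV and 36 in 12 members in MOCK, a log2 ratio of 0.64 (0.09 to 1.22). In other CD8 T cells Ccl4 ran the opposite way, with 29 UMIs in NAV and 70 in MOCK, a log2 ratio of -1.90. Ifng, of interferon gamma, was too sparse to compare, with 24 UMIs in 12 NAV members and 3 UMIs in 2 MOCK members.

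Itgae and Itgb7, the chains of the CD103 integrin, were lower in NAV members. Itgae had 29 UMIs in 20 of 125 members in NAV and 54 UMIs in 19 of 55 members in MOCK, a log2 ratio of -1.99 (-2.69 to -1.31). Itgb7, whose beta chain pairs with CD103, had 49 UMIs in 27 members in NAV and 51 in 23 members in MOCK, a log2 ratio of -1.15 (-1.74 to -0.55). In all other kept barcodes the ratios were 0.15 for Itgae and 0.18 for Itgb7, and in other CD8 T cells -1.25 and 0.28. Itgae was seen in 8.20% of members in NAV (4.00% to 14.6%) and 24.1% in MOCK (13.5% to 37.6%) after thinning. Gamma chain transcripts ran the same way, with Trgv2 in 8% of NAV and 20% of MOCK members and Trgc1 at 26 UMIs in 12 NAV and 26 UMIs in 8 MOCK members, a log2 ratio of -1.09, and their part in the Itgae and Itgb7 ratios was not tested. No other of the 12 residency genes passed 2-fold. Of 8 costimulatory genes 2 were called lower, Cd2 at -2.02 (-3.22 to -0.90) and Tnfrsf18, of the receptor GITR, at -1.53 (-2.64 to -0.46), which in all other kept barcodes had 0.01 and -1.0. The share called lower over all genes was 3.99%.

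Of 12 immediate early genes, 3 were called lower in NAV members and none higher, beside 3.99% lower and 3.61% higher over all genes. Fosb, a subunit of the AP-1 factor, stood at 92.3 CPM in NAV and 440 CPM in MOCK, a log2 ratio of -2.25 (-2.89 to -1.64), and was also lower in other CD8 T cells (-2.43) and in the remaining barcodes (-1.42). Zfp36, which destabilises cytokine transcripts, stood at 375 CPM in NAV and 856 CPM in MOCK, a log2 ratio of -1.19 (-1.54 to -0.84), against 0.01 in other CD8 T cells and -0.18 in all other kept barcodes. It fell short of 2-fold, at -0.76, without the highest cell of each library. Jun had -1.28 (-2.20 to -0.37) and -0.70 without the highest cells. The list's median was -0.56, beside 0.04 over all genes.

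Of 11 glycolysis genes, Eno1 and Hk2 were called lower in NAV members and none higher, beside 3.99% lower and 3.61% higher over all genes. Eno1, of enolase, had a log2 ratio of -1.12 (-1.74 to -0.50) in members, -1.71 in other CD8 T cells and -1.10 in all other kept barcodes. Gapdh had -0.62, -1.07 and -0.71 in the same order. Fau, which encodes a ribosomal protein fused to a ubiquitin-like one, was among the 10 ranked lowest. It had 27 UMIs in 26 members in NAV and 85 in 39 members in MOCK, a log2 ratio of -2.74, beside -1.81 in other CD8 T cells and -2.19 in all other kept barcodes, so the difference ran through the whole library. Ctsd, of the lysosomal protease cathepsin D, did likewise at -2.41, -1.70 and -2.87. Emp3, an epithelial membrane protein also ranked among the 10 lowest, had 5 UMIs in 5 NAV members and 36 in 19 MOCK members. Its log2 ratio was -3.94 (-5.64 to -2.58), beside -1.78 in other CD8 T cells and -1.17 in all other kept barcodes.

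A few other lists held single called genes. The activating NK-type receptor gene Klrk1, of NKG2D, had 40 UMIs in 22 NAV members and 6 in 4 MOCK members, a log2 ratio of 1.65 (0.40 to 3.18), and Klre1, a lectin-like receptor of NK cells, 1.10 (0.04 to 2.32). In all other kept barcodes these stood at 1.09 and 1.75. Of the naive and memory list Tcf7 (1.06, -0.15 to 2.49) and Bach2 (1.23, -0.18 to 2.98) were past 2-fold, with intervals that span 0. Gbp4, an interferon-induced GTPase, had 1.61 (0.08 to 3.59), the 1 called of 7 interferon-gamma genes, beside 3.61% called higher over all genes. Klrh1 stood higher in NAV by less than 2-fold, at 0.67 (0.25 to 1.11), and Gzma at -0.09 (-0.25 to 0.06).

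The genes of the drug's named target pathway were counted as transcripts, and the activity of ARF6 was not measured. All 18 measured genes of the ARF, COPI and cargo receptor list lay between -0.59 and 0.72, with a median of 0.04. Over all genes 3.61% were called higher and 3.99% lower, so no call among 18 is near that share. Arf6 had 137 UMIs in 72 members in NAV and 68 in 36 members in MOCK, a log2 ratio of -0.08 (-0.51 to 0.36). Arf1 was the 1 whose interval lay off 0, at -0.59 (-0.98 to -0.18). Members and other CD8 T cells did not differ past 2-fold in both libraries for any of the 18 either, beside 4.25% higher and 1.71% lower over all genes.

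**Figure D5:**
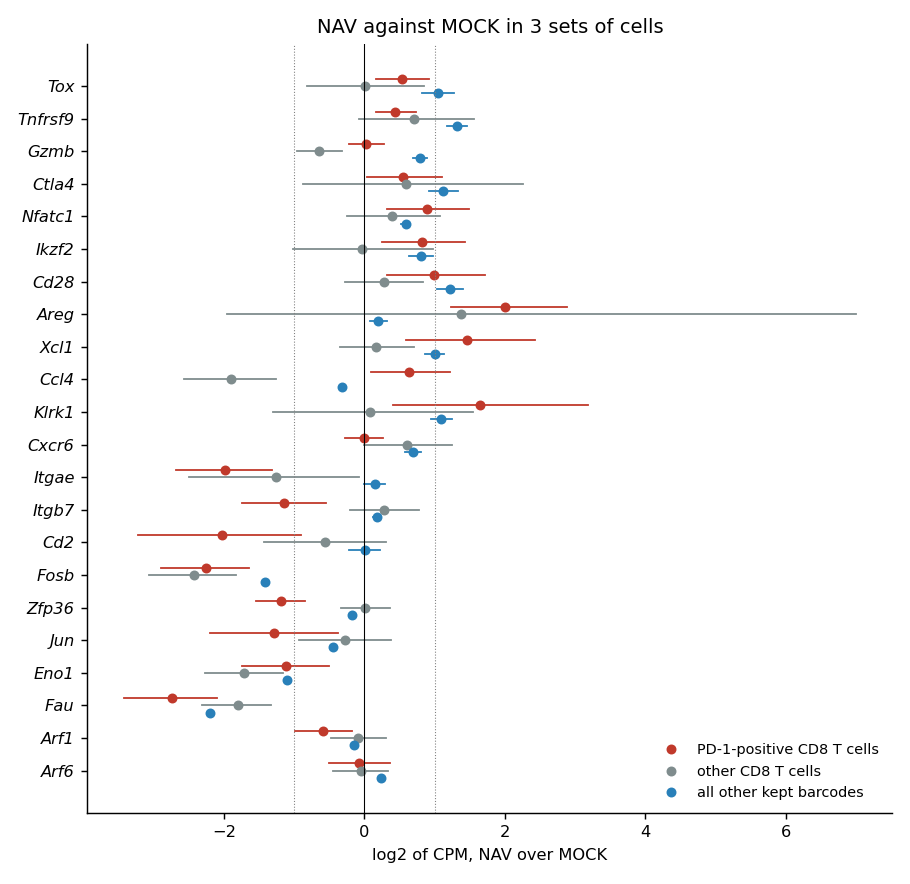
Log2 ratio of CPM in NAV over MOCK (x axis) for 22 genes (y axis) in members (red), other CD8 T cells (grey) and all other kept barcodes (blue). Points are ratios, lines 95% intervals for counting error, and dotted lines mark 2-fold. Itgae, Itgb7, Cd2 and Zfp36 are lower in members and near 0 in all other kept barcodes, while Fosb, Eno1 and Fau are lower in all 3 sets. In other CD8 T cells Itgae stands at -1.25, Cd2 at -0.57, Itgb7 at 0.28 and Zfp36 at 0.01.

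Genes with the largest ratios often came from few cells. Of the 10 ranked lowest in NAV, Ngp, Camp, Ltf and Wfdc21, genes of neutrophil granules or their precursors, had all their MOCK UMIs in 1 barcode each. With the barcode of 530 neutrophil-list UMIs left out, they and Lcn2, Chil3 and Anxa1 had under 10 UMIs over both libraries. Ccr7, a lymph node homing receptor, had 7 UMIs in 5 NAV members and 34 UMIs in 3 MOCK members, and its log2 ratio of -3.37 became 0.23 without the highest cells. Among those ranked highest, Clec10a, a lectin of dendritic cells and macrophages, had 50 UMIs in 5 NAV members, 28 of them in 1 cell, and none in MOCK. Against a floor of 3 UMIs in MOCK its log2 ratio was 2.97, and 1.79 without that cell. Hmox1, of heme oxygenase, had 49 UMIs in 5 NAV members, 45 of them in 1 cell, and none in MOCK. Against the same floor its log2 ratio was 2.94, and -0.67 without that cell, a value set by the floor. Spread over more cells were Cct3, a chaperonin subunit (84 UMIs in 60 NAV members and 12 in 11 MOCK members, log2 ratio 1.72), Alcam, an adhesion receptor (30 UMIs in 23 NAV members and 1 UMI in MOCK, 3.82), and Gmps, an enzyme of guanine nucleotide synthesis (44 UMIs in 35 NAV members and 5 in 4 MOCK members, 2.05). The other genes ranked among the 10 highest were Ap1s3, an adaptor subunit of vesicle coats (2.96), Smco4 (2.61), Cyp51, a sterol synthesis enzyme (2.03), and Ndufb11, a subunit of respiratory complex I (1.58). Leaving out every CD8 barcode with at least 10 UMIs of another lineage kept 8 of the 10 genes ranked highest and 1 of the 10 ranked lowest, Fau.

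The promoters of 3 genes are printed to show the letters searched for factors known to act on this programme. Each runs from 250 bases before to 50 bases after the start of a RefSeq gene (GRCm38.p6), 5′ to 3′ on the gene's strand. Capitals mark the letters of AP-1 (TGANTCA), the NFAT core (GGAAA), Runx (TGTGGT) or T-box (AGGTGTNA), on either strand. Pdcd1 was the gene that chose the cells, Tnfrsf9 a marker the rule did not use, and Gzma the granzyme gene among the 12 ranked highest. For Tnfrsf9, which has a pair of entries, the downstream one is shown, and the upstream one holds 2 NFAT cores and none of the other letters.
Pdcd1, chr1:94052504-94052803, minus strand: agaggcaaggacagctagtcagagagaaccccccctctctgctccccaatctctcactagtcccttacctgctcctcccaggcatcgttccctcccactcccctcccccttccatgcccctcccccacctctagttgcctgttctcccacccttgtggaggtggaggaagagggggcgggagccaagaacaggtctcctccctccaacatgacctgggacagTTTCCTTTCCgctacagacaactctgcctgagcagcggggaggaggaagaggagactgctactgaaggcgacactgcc
Tnfrsf9, chr4:150927749-150928048, plus strand: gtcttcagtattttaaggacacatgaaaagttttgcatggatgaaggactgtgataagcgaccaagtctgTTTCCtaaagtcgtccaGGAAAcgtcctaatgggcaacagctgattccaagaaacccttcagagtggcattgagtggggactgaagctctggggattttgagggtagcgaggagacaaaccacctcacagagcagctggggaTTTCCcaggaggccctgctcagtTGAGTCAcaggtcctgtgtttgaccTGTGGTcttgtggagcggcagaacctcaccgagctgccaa
Gzma, chr13:113100932-113101231, minus strand: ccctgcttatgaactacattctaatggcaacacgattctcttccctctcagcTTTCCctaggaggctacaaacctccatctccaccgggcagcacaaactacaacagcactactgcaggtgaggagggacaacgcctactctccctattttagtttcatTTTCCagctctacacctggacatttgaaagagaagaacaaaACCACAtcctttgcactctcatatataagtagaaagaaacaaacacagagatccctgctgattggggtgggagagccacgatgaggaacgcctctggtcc
The Pdcd1 sequence holds the NFAT core letters 2 times, the Tnfrsf9 sequence holds them 3 times beside 1 AP-1 and 1 Runx match, and the Gzma sequence holds them 2 times beside 1 Runx match. Of the 12 genes ranked highest in members, 10 had an entry. Runx letters stood in 4 of these (Cxcr6, Gzma, Serpina3g and Tnfrsf9), NFAT core letters in 7, AP-1 letters in 1 and T-box letters in 1. The AP-1 match, and Tnfrsf9 among the 4 with Runx letters, rest on the downstream Tnfrsf9 entry. Of the 12 ranked lowest, 9 had an entry, with 0, 6, 0 and 1 in the same order. Of all 32851 promoter entries, 16.8% held the Runx letters, 61.3% the NFAT core, 7.81% AP-1 and 3.03% T-box. That share is per entry, whereas a gene counted here could match in any of its entries (14 entries for the 10 genes and 18 for the 9), so the share and the counts are not alike. A match is a description of letters and not of binding.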

How the data were processed

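The deposited values are raw UMI counts, one table of genes by barcodes for each library, with no normalization, and the tables hold no barcode under 500 UMIs. The submitters' processing notes name the build mm10 and the tools Cell Ranger, STARsolo (2.7.10a) and fastp, without a role or an order. Totals were 31454031 UMIs in NAV and 45976676 in MOCK, over 31253 genes. PCR duplicates were collapsed only as far as UMIs do, and intervals cover counting error alone. The 2 labels give 1 pooled library each.

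Counts were summed per class and library and scaled to CPM. Ratios carry exact conditional 95% intervals, shares Clopper-Pearson ones (Python 3.11.15, scipy 1.17.1, numpy 2.4.6, pandas 2.3.3). A gene was called past 2-fold with at least 30 UMIs over both sums. No p-value was computed, and the calculations were tested on simulated data. Detection was also given after thinning each cell to 1000 UMIs. Doublets were scored with Scrublet in scanpy 1.11.5; its automatic threshold did not work, and a score above 0.25 marked 174 NAV and 176 MOCK barcodes, of them 1 NAV and 0 MOCK members, which were kept. CD4 T cells needed a Cd4 UMI and no CD8 one, NK cells Ncr1 or Klrb1c without Cd3 or Trac, B cells Cd79a with a further B cell gene and no Cd3 or Trac. Some genes, among them 1 of the 12 ranked lowest, are not reported here.

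Named genes were drawn from Tox, Tnfrsf9 and Gzmb, the 10 highest and 10 lowest in NAV over MOCK, the 12 highest and 12 lowest in members over other CD8 T cells, by the interval bound nearest to 0, and up to 4 genes of each list. Genes of the rule, of other cell types' lists, of antigen receptors, ribosomal (Rpl, Rps), mitochondrial and sex-linked genes were not ranked. Further list members are named where a count includes them, and Maf, Klrh1's and Glp1r's treatment ratios, Ifng, Gapdh and Spp1 were chosen after their values were seen. The members and lists were chosen with earlier results of these data known. Of the list symbols, 3 (Cd244, Mx2 and Tcrg-C1) are not in the tables.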

Additional observations from a re-analysis of the deposited data

Results flagged for a closer look

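A pair of genes stood in opposite directions in classes of cells or libraries that were compared alike, and the difference was not tested in any of the 3 cases, since each group is 1 library. Ccl4, a chemokine of activated T cells, was higher in PD-1-positive than in other CD8 T cells in NAV (log2 ratio 1.91) and lower in MOCK (-0.62). Its NAV over MOCK ratio was 0.64 in the members and -1.90 in other CD8 T cells. Srgn, which encodes the granule proteoglycan serglycin, had a NAV over MOCK log2 ratio of -0.22 in the members and 0.24 in other CD8 T cells.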

How the results depend on the processing

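No paired analysis was possible because each group is 1 library. The ratio of members among kept barcodes was 1.23 on the log2 scale, and 0.48 when counted among T and NK cells; it was above 0 in every alternative run. Genes at least 2-fold higher and lower in NAV members numbered 23 and 55 at a minimum of 60 UMIs, and 565 and 563 at 10 UMIs. Genes higher and lower in members than in other CD8 T cells in both libraries numbered 51 and 16 at 60 UMIs, and 252 and 120 at 10 UMIs. With at most 2 UMIs of the wider other-lineage lists, which hold Ly6c2, 21 were lower. With barcodes of at least 10 UMIs of another lineage left out, Ly6c2 not counted, 37 were lower. The cause of these shifts beyond the number of genes measured was not tested. After the ratio in all other kept barcodes was subtracted, Ctsd turned to 0.46 and Klre1 to -0.65, and Tox, Tnfrsf9 and Ctla4 stood at -0.51, -0.88 and -0.57. Of the alternatives for 94 genes in NAV over MOCK, 924 values held, 59 moved and 2 reversed. A value held if it lay within the gene's main interval for counting error, whether or not the 2-fold call was kept. Jun, at -0.70 without the highest cells, lay within its interval but fell short of 2-fold. Only genes past 2-fold could count as reversed, so the changes of sign of Tox, Tnfrsf9 and Ctla4 did not. For 178 ratios of members over other CD8 T cells, 1177 held, 64 moved and 0 reversed. For 19 list medians 193 held and 16 moved, and of 68 shares of cells with a UMI 36 moved and 32 held when the cells were not thinned. The alternatives that left out a neutrophil-gene barcode, barcodes with 10 UMIs of another lineage or each gene's highest cell, or lifted the gate's limit, were chosen after seeing the data. The 55 MOCK members limit every ratio of a sparse gene.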
